A study of Mus musculus with 8 samples.

Results

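Peroxisome genes were examined in adipose tissue of cold-exposed mice, as 35 genes chosen by function: 19 enzymes, 4 membrane transporters and channels, and 12 peroxins. All 35 were found among the 18395 genes counted, and all 35 passed the filter on low counts that left 13901 genes. The tissue came from control mice (WT, n = 4) and from mice with a knockout of Kindlin-2 in brown adipocytes (KO, n = 4), and every mouse had spent 6 hours at 4 °C. Kindlin-2, encoded by Fermt2, is an adaptor that binds integrins at focal adhesions. The labels name the tissue as adipose and give no depot, age, sex, strain or Cre driver, so the promoter that limits the deletion is not given in the sources used here. Nothing in the labels says that replicates were separate animals, and p-values therefore cover the spread between these samples, which may be technical.

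Peroxisomes shorten very long-chain, branched and dicarboxylic fatty acids by beta-oxidation, break down the hydrogen peroxide this makes, and start the synthesis of ether lipids. ATP-binding cassette transporters of the ABCD family carry acyl-CoA into them, and peroxins (the Pex genes) build the membrane and import the enzymes from the cytosol. In brown fat, cold raises peroxisomal fatty acid oxidation, and the organelle works beside the mitochondria that make heat.

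The tissue carried the transcripts of brown adipocytes. Ucp1 lay between 5082 and 6576 CPM (counts scaled to library size) in WT and between 1792 and 4301 CPM in KO, and Fermt2 between 201 and 244 CPM in WT and between 132 and 192 CPM in KO, which did not overlap. The difference of Fermt2 was -0.45 ± 0.14 (SE) on the log2 scale (edgeR adjusted p = 0.134), in tissue whose other cells also carry the gene. Total counts per library ran from 33672272 to 43253559. A pair of libraries stood apart: WT replicate 3 had 3.81% of its counts in 12 skeletal muscle markers, against at most 0.0298% in the other 7, and KO replicate 2 had 0.279% in 10 interferon response markers, against at most 0.029%. Results are therefore also given from a 6-library comparison without those 2 libraries. Fermt2 there differed by -0.32 ± 0.12 (edgeR adjusted p = 0.159). With all 8 libraries DESeq2 called Fermt2 lower (adjusted p = 0.0357), where it called 4.14% of its genes lower and 3.65% higher. Hepatocyte markers, tested because liver is rich in peroxisomes, were near 0: the fibrinogen gene Fgb had no count in any library, and albumin (Alb) reached 0.346 CPM at most. Cyp2e1 was the exception, at 17.5 to 217 CPM.

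Transcripts of the peroxisome were lower in KO, and those of the enzymes more so than those of the peroxins. Of the 35 genes, 33 had a log2 fold change (KO minus WT) below 0, against 49.5% of all genes tested. The median was -0.57 over the 19 enzymes, -0.49 over the 4 transporters and channels and -0.36 over the 12 peroxins, beside 0.00362 over all genes tested. In 17 of the 35 every KO library lay below every WT library, against 7.56% of all genes, and none of the 35 lay the other way round, against 5.80%. By edgeR's quasi-likelihood test 25 of the 35 had an unadjusted p under 0.05 with a lower level in KO, against 11.1% of all genes, and 0 had one with a higher level, against 10.4%.

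No peroxisome gene was called with all libraries: edgeR found none at an adjusted p under 0.05, where the share over all genes was 0%, and the smallest adjusted p among the 35 was 0.0874. In the 6-library comparison edgeR called 9 of the 35, all lower in KO, against 1.50% of all genes called lower and 1.82% called higher: Ehhadh, Hsd17b4, Pecr, Cat, Phyh, Hsdl2, Pxmp4, Pex3 and Pex7. Without KO replicate 2 alone it called 8, all lower, where 0.877% of all genes were called lower and 1.70% higher. With all 8 libraries DESeq2 called 15, all lower, where it called 4.14% of its genes lower and 3.65% higher. The weighted limma-voom fit, which lets noisier libraries count less, called 16, all lower, where 3.62% of all genes were called lower and 2.94% higher.

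**Figure D1:**
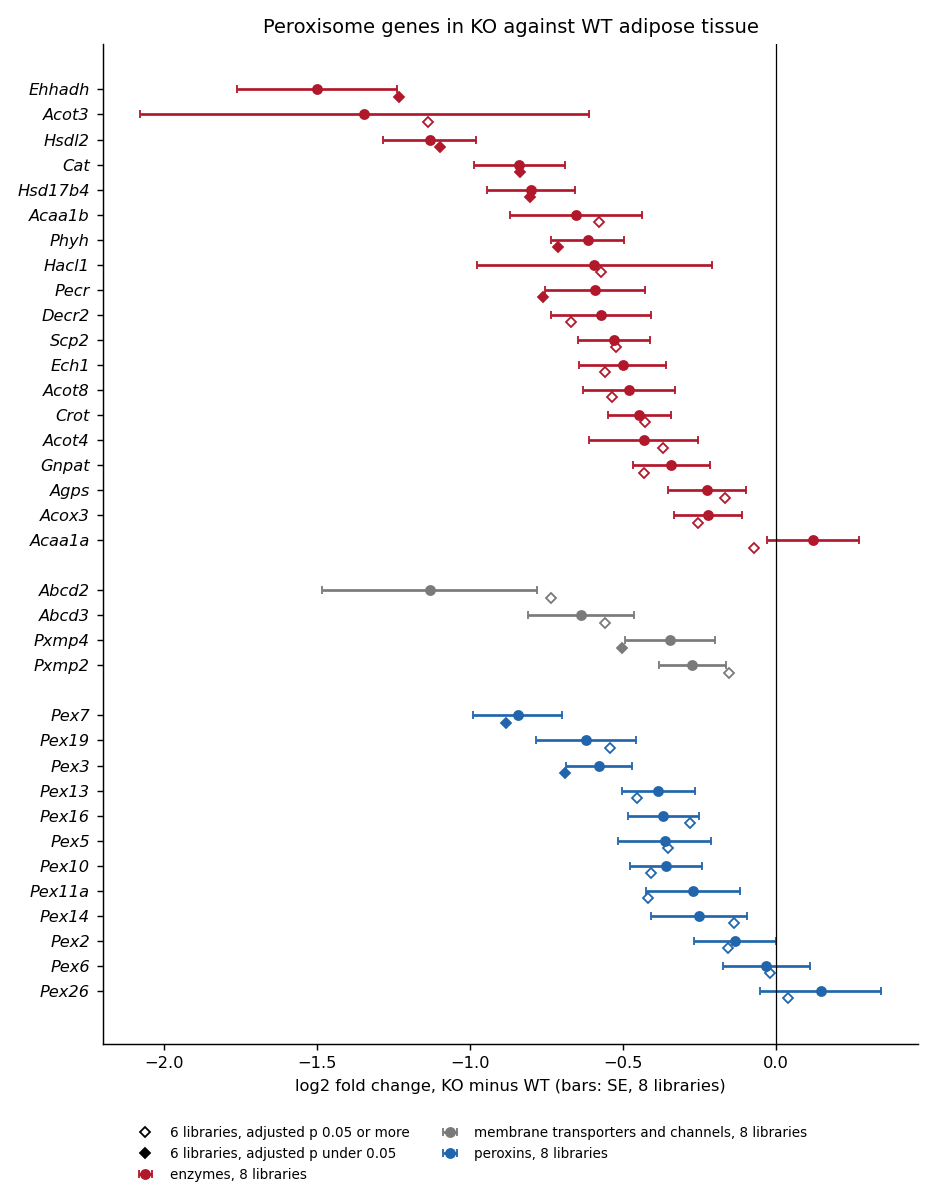
Log2 fold change of each of the 35 peroxisome genes, KO minus WT (x axis), grouped as enzymes, membrane transporters and channels, and peroxins. Circles with bars are the 8-library values and their standard errors; diamonds are the 6-library values, filled for the 9 genes with an adjusted p under 0.05. Acaa1a and Pex26 are the genes to the right of 0 with 8 libraries.

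The beta-oxidation enzymes were led by Ehhadh (ENSMUSG00000022853), the L-bifunctional enzyme that hydrates and then dehydrogenates the acyl chain. It stood at 231, 259, 368 and 396 CPM in WT (replicates 1 to 4, as in all that follows), and at 122, 66.1, 143 and 112 CPM in KO. The groups did not overlap, and WT replicates 3 and 4 were the highest. Ehhadh differed by -1.50 ± 0.26 (SE) on the log2 scale (edgeR adjusted p = 0.0915) and fell by 1.23 in the 6-library comparison (adjusted p = 0.0313). Hsd17b4 (ENSMUSG00000024507), the D-bifunctional enzyme that does the same steps with the other stereochemistry, was at 239, 277, 221 and 288 CPM in WT and at 135, 128, 181 and 146 CPM in KO. All its KO values were below its WT values, and it fell by 0.80 in the 6-library comparison (adjusted p = 0.0335). Ehhadh differed more than Hsd17b4 in the 8-library fit, and the difference between them was not tested.

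Scp2 (ENSMUSG00000028603), the gene of sterol carrier protein 2 and of a thiolase for branched chains, was measured at 850, 1002, 887 and 1016 CPM in WT and 620, 605, 725 and 651 CPM in KO. Its groups were apart, with a log2 fold change of -0.53 ± 0.12 (edgeR adjusted p = 0.0981, and 0.0691 with 6 libraries). Pecr (ENSMUSG00000026189), a trans-2-enoyl-CoA reductase, was far less abundant, at 15.5, 16.9, 14.9 and 21.5 CPM in WT and 10.5, 13.9, 10.6 and 10.6 CPM in KO. The groups did not overlap, though the highest KO value, in replicate 2, came close to the lowest WT value; without that library and WT replicate 3 the gene fell by 0.76 (adjusted p = 0.0414). Ech1 and Decr2, auxiliary enzymes for unsaturated chains, had log2 fold changes of -0.50 ± 0.14 and -0.57 ± 0.16. Acox3, an oxidase of branched acyl-CoA, had -0.22 ± 0.11, among the smallest of the enzymes.

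Acaa1a (ENSMUSG00000036138), the thiolase that closes the beta-oxidation cycle, was the enzyme that did not lie lower. It was at 192, 219, 185 and 226 CPM in WT and at 217, 289, 199 and 190 CPM in KO, so the groups overlapped. The log2 fold change was 0.12 ± 0.15 with a 95% interval from -0.22 to 0.46, and -0.072 ± 0.12 in the 6-library comparison (edgeR adjusted p = 0.657 and 0.768). The high KO value was that of replicate 2, the library rich in interferon response transcripts. Exons of Acaa1a share 6.6% of their length with Myd88 on the other strand, and Myd88 was also highest in that library (54.8 CPM, against 32.0 to 41.7 CPM elsewhere); whether counting kept the strands apart is not given in the sources used here, and the part of this overlap was not tested. The close paralog Acaa1b (ENSMUSG00000010651) was at 29.6, 15.7, 31.2 and 26.8 CPM in WT and 18.5, 17.4, 17.0 and 12.9 CPM in KO. WT replicate 2 lay within the KO range, and the log2 fold change was -0.65 ± 0.22 (adjusted p = 0.155). How reads shared by this pair were counted is not known, so their separate levels are uncertain.

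Catalase, which removes the hydrogen peroxide of peroxisomal oxidation, is encoded by Cat (ENSMUSG00000027187). It was at 689, 705, 874 and 992 CPM in WT and at 458, 488, 480 and 397 CPM in KO. Every KO library was lower than every WT library, the KO values were the tighter set, and Cat fell by 0.84 in the 6-library comparison (edgeR adjusted p = 0.0394). Hsdl2 (ENSMUSG00000028383), a short-chain dehydrogenase of the peroxisome, had the smallest p of the 35 genes. It lay at 232, 248, 256 and 315 CPM in WT and at 103, 109, 150 and 118 CPM in KO. The groups were far apart, with means of 263 ± 36.4 and 120 ± 20.7 CPM (SD, n = 4), a log2 fold change of -1.13 ± 0.15 (edgeR adjusted p = 0.0874) and a fall of 1.10 in the 6-library comparison (adjusted p = 0.0289).

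Alpha-oxidation, which trims the methyl-branched phytanic acid by one carbon, starts with Phyh (ENSMUSG00000026664), phytanoyl-CoA hydroxylase. Phyh was measured at 662, 670, 577 and 668 CPM in WT and 368, 462, 452 and 401 CPM in KO. The groups did not overlap, and the gene fell by 0.71 in the 6-library comparison (edgeR adjusted p = 0.0334). Hacl1, the lyase of the next step, was at 1.80, 0.940, 0.971 and 1.81 CPM in WT and 1.24, 0.603, 0.8286 and 0.986 CPM in KO. Its groups overlapped, and the log2 fold change of -0.59 ± 0.38 had an interval from -1.45 to 0.27. For Hacl1, 31.1% of the exon length is shared with another annotated gene on the same strand that has no row in the table.

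The first steps of ether lipid synthesis had smaller differences. Gnpat (ENSMUSG00000031985), which acylates dihydroxyacetone phosphate, was at 288, 332, 249 and 325 CPM in WT and 211, 241, 255 and 236 CPM in KO. Only KO replicate 3 reached into the WT range, and the log2 fold change was -0.34 ± 0.13 (edgeR adjusted p = 0.178). Agps, which puts in the ether bond, was at 32.7, 36.0, 37.0 and 32.0 CPM in WT and 35.8, 28.2, 29.0 and 24.8 CPM in KO. Its groups overlapped through KO replicate 1, and the interval of its log2 fold change ran from -0.51 to 0.06. Far1, which makes the fatty alcohol for this pathway and was picked out after its values were seen, lay the other way: 18.0 to 19.8 CPM in WT and 26.9, 21.7, 31.1 and 29.4 CPM in KO. Far1 rose by 0.61 in the 6-library comparison (edgeR adjusted p = 0.0377), and its value over all libraries was 0.53 ± 0.13 (adjusted p = 0.103).

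Thioesterases and the carnitine transferase release or hand on the shortened acyl chains. Crot (ENSMUSG00000003623), carnitine octanoyltransferase, was at 45.7, 47.9, 44.6 and 38.0 CPM in WT and 33.6, 31.6, 33.8 and 30.4 CPM in KO, without overlap (log2 fold change -0.45 ± 0.10, edgeR adjusted p = 0.0992). Acot8, a thioesterase of broad range, was at 15.4, 16.3, 12.8 and 19.5 CPM in WT and 12.0, 10.5, 11.2 and 12.1 CPM in KO, also apart (-0.48 ± 0.15, adjusted p = 0.143). Exons of Acot8 share 12.3% of their length with Snx21 on the other strand. Acot4, which acts on succinyl-CoA, was at 16.2, 22.8, 20.6 and 26.7 CPM in WT and 18.7, 13.1, 17.5 and 14.6 CPM in KO, with overlap (-0.43 ± 0.18, adjusted p = 0.209). Acot3 was barely detected, with 18 to 25 counts in each WT library and 31, 6, 2 and 4 counts in KO replicates 1 to 4, and the interval of its log2 fold change was wide, from -2.99 to 0.30. Its log2 fold change was -1.35 over all libraries, -2.71 without KO replicate 1, and -2.51 in the weighted limma-voom fit (adjusted p = 0.036).

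**Figure D2:**
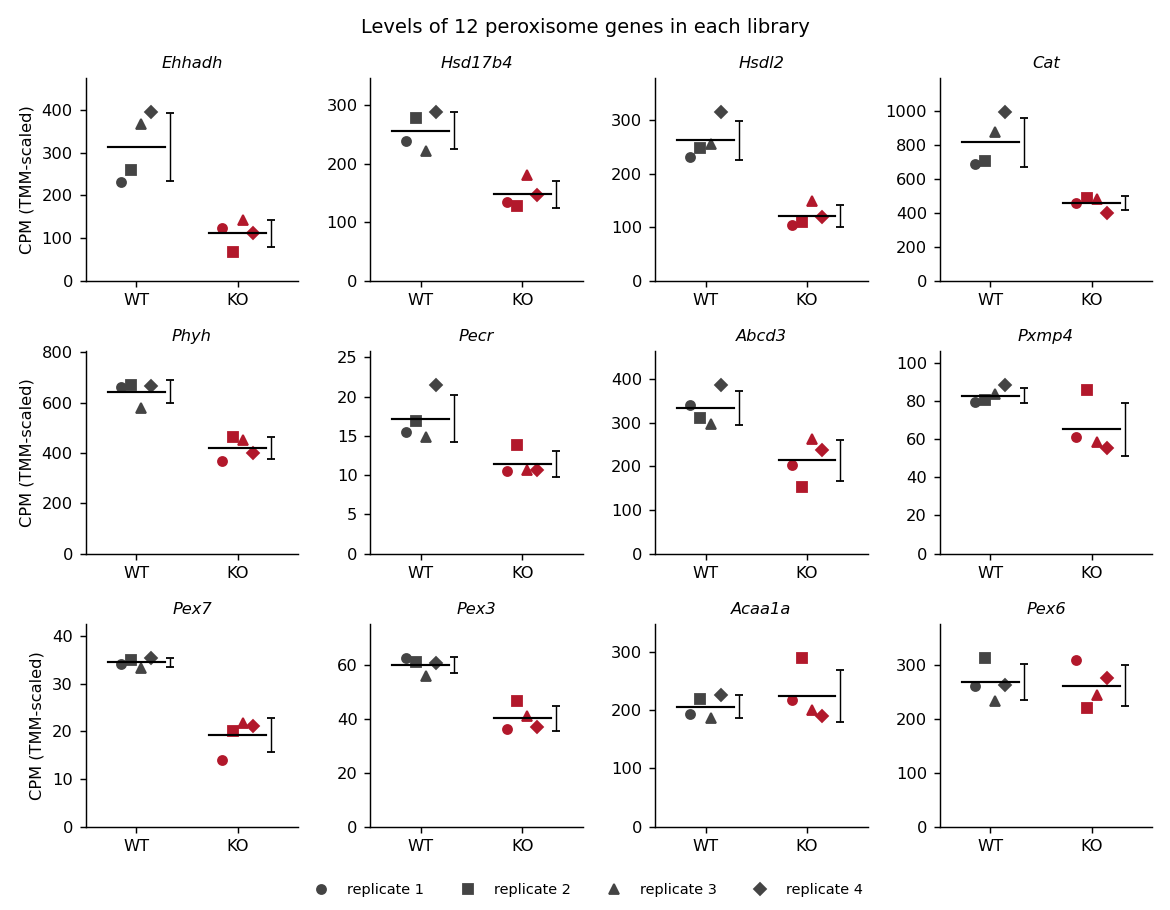
Level of 12 peroxisome genes in each library, in CPM on TMM-scaled library sizes (y axes start at 0), for WT (grey) and KO (red). Marker shapes are the replicate numbers, lines the means and bars the SD of 4 libraries; Ehhadh, Hsdl2, Cat and Pex7 do not overlap between groups, Acaa1a and Pex6 do, and Pxmp4 overlaps through KO replicate 2 at 86.2 CPM.

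Among membrane proteins, Abcd3 (ENSMUSG00000028127), the abundant ABCD transporter of branched and dicarboxylic acyl-CoA, was at 339, 309, 297 and 386 CPM in WT and 203, 153, 262 and 237 CPM in KO. The groups were apart, with a log2 fold change of -0.64 ± 0.17 (edgeR adjusted p = 0.119, and 0.0660 with 6 libraries). Abcd2 (ENSMUSG00000055782), which carries very long-chain acyl-CoA, was at 26.3, 18.0, 44.7 and 41.2 CPM in WT and 15.4, 7.98, 21.2 and 14.8 CPM in KO. The groups overlapped, since KO replicate 3 lay above WT replicate 2. Abcd2 was highest in WT replicates 3 and 4 and lowest in KO replicate 2, and differed by -1.13 ± 0.35 with 8 libraries and by -0.73 ± 0.29 with 6 (adjusted p = 0.147 and 0.180), a value that moved by over 1.5 times on the log2 scale. Pxmp4 (ENSMUSG00000000876), a small peroxisomal membrane protein, was at 79.5, 80.6, 83.8 and 88.6 CPM in WT and at 61.1, 86.2, 58.6 and 55.6 CPM in KO. KO replicate 2 alone lay within the WT range, and in the 6-library comparison Pxmp4 fell by 0.50 (edgeR adjusted p = 0.0422) where the 8-library difference was -0.35 ± 0.15. Pxmp2, a channel for small solutes, was at 31.1, 32.8, 39.1 and 34.0 CPM in WT and 29.4, 25.4, 29.5 and 29.2 CPM in KO, close but apart, and its log2 fold change was -0.27 ± 0.11 with 8 libraries and -0.15 ± 0.11 with 6.

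Of the peroxins, the trio that places proteins in the peroxisomal membrane had a median log2 fold change of -0.58. Pex3 (ENSMUSG00000019809), the membrane anchor of the trio, was at 62.6, 61.1, 56.0 and 60.6 CPM in WT and 36.3, 46.6, 41.1 and 36.9 CPM in KO. These groups were well apart, and Pex3 fell by 0.69 in the 6-library comparison (edgeR adjusted p = 0.0289). Pex19, the soluble chaperone, was at 169, 183, 198 and 245 CPM in WT and 116, 107, 160 and 134 CPM in KO, without overlap (-0.62 ± 0.16, adjusted p = 0.117). Pex16, which recruits Pex3, was at 81.2, 96.0, 103 and 94.0 CPM in WT and 66.5, 66.7, 81.4 and 75.2 CPM in KO, where KO replicate 3 just reached WT replicate 1 (-0.37 ± 0.12, adjusted p = 0.145).

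Import of enzymes from the cytosol depends on the receptors Pex5 and Pex7. Pex7 (ENSMUSG00000020003), which recognises the amino-terminal signal PTS2, was at 34.2, 35.03, 33.4 and 35.4 CPM in WT and at 13.9, 20.1, 21.8 and 21.1 CPM in KO. The groups did not overlap. The means were 34.5 ± 0.892 and 19.2 ± 3.61 CPM (SD, n = 4), the log2 fold change was -0.84 ± 0.15 (edgeR adjusted p = 0.0915), and Pex7 fell by 0.88 in the 6-library comparison (adjusted p = 0.0364). It had the lowest log2 fold change of the 12 peroxins. Enzymes known as PTS2 cargo did not share one value: Phyh had -0.62, Agps -0.22 and Acaa1a 0.12. These are RNA levels, which do not measure import of the proteins, and a link to Pex7 was not tested. Pex5 (ENSMUSG00000005069), the receptor of the more common carboxy-terminal signal PTS1, was at 180, 173, 134 and 181 CPM in WT and 152, 101, 139 and 127 CPM in KO. Its groups overlapped through WT replicate 3, and the log2 fold change was -0.36 ± 0.15 (adjusted p = 0.213). Of the docking proteins, Pex13 was at 129, 113, 117 and 142 CPM in WT and 84.6, 104, 104 and 91.4 CPM in KO, without overlap (-0.38 ± 0.12, adjusted p = 0.140), and Pex14 had -0.25 ± 0.16 with overlapping groups, or -0.14 with 6 libraries.

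The peroxins that ubiquitinate and recycle the import receptor, and that of organelle growth, had log2 fold changes between -0.36 and 0.15. None was called by edgeR with 8 or 6 libraries. Over all genes edgeR called 0% with 8 libraries, and 1.50% lower and 1.82% higher with 6. The weighted limma-voom fit called Pex10 alone of these peroxins (log2 fold change -0.42, adjusted p = 0.0401), where 3.62% of all genes were called lower. Pex10, a RING ubiquitin ligase, was at 20.0, 20.7, 21.7 and 20.0 CPM in WT and 16.0, 18.5, 15.7 and 14.0 CPM in KO, without overlap (-0.36 ± 0.12, edgeR adjusted p = 0.154). Its partner Pex2 was at 46.7, 55.8, 44.7 and 52.8 CPM in WT and 39.2, 43.0, 55.9 and 44.4 CPM in KO, overlapping, with an interval of the log2 fold change from -0.43 to 0.17. Pex6 (ENSMUSG00000002763), an ATPase that pulls Pex5 back out of the membrane, was at 261, 312, 232 and 263 CPM in WT and 308, 220, 243 and 275 CPM in KO. The groups covered the same range, and the log2 fold change was -0.031 ± 0.14 with an interval from -0.35 to 0.29. Pex26, the anchor of Pex6, was at 8.10, 13.001, 7.94 and 12.1 CPM in WT and 10.5, 11.4, 13.3 and 10.4 CPM in KO, again overlapping, with an interval from -0.30 to 0.59 around 0.15, and 0.041 with 6 libraries. Pex11a, which elongates peroxisomes before they divide, was at 71.2, 100.3, 77.1 and 95.1 CPM in WT and 73.5, 85.4, 65.9 and 60.0 CPM in KO, with overlap (-0.27 ± 0.15, adjusted p = 0.318, and -0.42 with 6 libraries).

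Set against each other library by library, the enzymes lay below the peroxins in every KO library. For each library the median over a list of log2 CPM relative to the WT mean was taken. For the enzymes it was -0.071, 0.068, -0.077 and 0.14 in WT and -0.48, -0.53, -0.50 and -0.54 in KO. For the peroxins it was -0.067, 0.034, -0.093 and 0.095 in WT and -0.40, -0.32, -0.26 and -0.42 in KO. Both lists were low in all 4 KO libraries, and their difference, enzymes minus peroxins, ran from -0.24 to -0.08 in KO and from -0.0042 to 0.047 in WT. The WT values lie near 0 by construction, and the members were chosen with earlier results known, so the contrast is a description with no test. The 2 lists had like median abundance, 71.4 and 73.0 CPM in WT, and like median standard errors, 0.150 and 0.144. Their ranges were not alike: the enzymes ran from 0.648 to 1467 CPM in WT and the peroxins from 10.3 to 267 CPM.

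**Figure D3:**
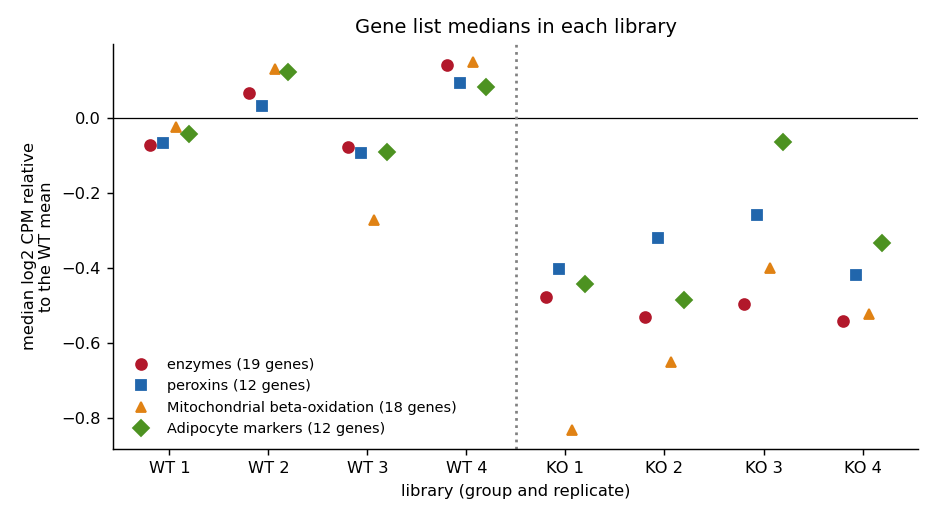
Median over each gene list of log2 CPM relative to the WT mean (y axis) in each of the 8 libraries (x axis), for peroxisome enzymes, peroxins, mitochondrial beta-oxidation genes and adipocyte markers. In KO the enzymes lie between -0.54 and -0.48 and the peroxins between -0.42 and -0.26; adipocyte markers lie between -0.49 and -0.062.

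How counts were scaled set the size of these differences, since the normalization factors (trimmed mean of M values, TMM) were 0.879 to 0.948 for WT libraries but 1.05 to 1.15 for KO libraries. Scaling by total counts alone moved the median of all genes to 0.264, the enzyme median to -0.31 and the peroxin median to -0.10; Acox3, Agps, Pex14, Pex2 and Pex6 then lay slightly above 0. Relative to all genes, the enzyme median was -0.57 under both scalings and the peroxin median -0.37. A change of scaling shifts all genes nearly alike, so this agreement holds by construction. As a plain share of all counts, the 19 enzymes took 0.463%, 0.538%, 0.449% and 0.557% in WT and 0.385%, 0.396%, 0.412% and 0.387% in KO, which did not overlap. The 12 peroxins took 0.107% ± 0.0107 in WT and 0.103% ± 0.00691 in KO (SD, n = 4), which did. Such shares are sums in which abundant genes weigh most. Ech1 alone had a mean of 1467 of the 5491 CPM summed over the enzymes in WT. Pex6, with a log2 fold change of -0.031, had 267 of the 1168 CPM summed over the peroxins.

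Per kilobase of exon, the most abundant members in WT were enzymes. Exon length here joins all annotated exons of a gene, whether or not they were used in this tissue. The rank of genes with a long total, such as Pex7 at 12.1 kilobases, is therefore uncertain. Ech1 stood first at 642 CPM per kilobase, then Phyh at 340, Cat at 312 and Scp2 at 270 CPM per kilobase. The highest peroxin was Pex6, at 70.4 CPM per kilobase, in 9th place, and the lowest members were Hacl1 and Acot3, at 0.279 and 0.188 CPM per kilobase. Ehhadh, in 5th place in WT at 105 CPM per kilobase, was at 37.1 in KO, below Hsdl2 at 43.0 and Hsd17b4 at 43.3 CPM per kilobase.

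The promoters of the enzymes and peroxins were also set side by side. RefSeq promoters (GRCm38.p6, 250 bases before to 50 after the start, on the gene's strand) were found for 30 of the 35 genes. Nuclear receptors of the PPAR family, known activators of peroxisomal genes, bind paired copies of AGGTCA. The paired form named DR1, with the fourth base of each copy free, was in 0 of the 30 promoters on either strand, against 0.32% of the promoters of genes tested. With a share that low, 0 of 30 does not set these promoters apart from the rest. A single AGGTCA was in 5 of 18 enzymes (27.8%), those of Phyh, Cat, Scp2, Acot4 and Acot3, in 0 of 10 peroxins and in 14.9% of genes tested. CCAAT was in 11 of 18 enzymes (61.1%), 3 of 10 peroxins and 42.7% of genes tested. These matches are descriptions of the windows and name no site in use. Base composition was alike, with a median GC content of 57.7% in the enzymes and 58.3% in the peroxins.

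Promoters of 6 genes called in the 6-library comparison are given, 4 enzymes and 2 peroxins, with AGGTCA and CCAAT on either strand in capitals. Their positions are chr16:21787785-21788084 (reverse strand) for Ehhadh, chr4:59581313-59581612 (forward strand) for Hsdl2, chr2:103485104-103485403 (reverse strand) for Cat, chr2:4918746-4919045 (forward strand) for Phyh, chr10:19907625-19907924 (reverse strand) for Pex7 and chr10:13553093-13553392 (reverse strand) for Pex3, all in GRCm38.p6, while the counts were made on GRCm39.
Ehhadh: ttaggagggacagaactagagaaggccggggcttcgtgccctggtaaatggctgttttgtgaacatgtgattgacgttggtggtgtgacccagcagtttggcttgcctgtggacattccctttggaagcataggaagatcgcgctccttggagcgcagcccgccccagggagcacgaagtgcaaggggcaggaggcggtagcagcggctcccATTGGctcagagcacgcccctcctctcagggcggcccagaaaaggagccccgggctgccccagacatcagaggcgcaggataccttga
Hsdl2: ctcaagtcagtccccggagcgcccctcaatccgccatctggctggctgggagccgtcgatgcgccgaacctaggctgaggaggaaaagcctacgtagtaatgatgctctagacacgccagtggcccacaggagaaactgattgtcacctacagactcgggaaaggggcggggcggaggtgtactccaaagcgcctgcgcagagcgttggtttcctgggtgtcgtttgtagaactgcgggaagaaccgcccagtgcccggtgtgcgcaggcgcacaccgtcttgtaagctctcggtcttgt
Cat: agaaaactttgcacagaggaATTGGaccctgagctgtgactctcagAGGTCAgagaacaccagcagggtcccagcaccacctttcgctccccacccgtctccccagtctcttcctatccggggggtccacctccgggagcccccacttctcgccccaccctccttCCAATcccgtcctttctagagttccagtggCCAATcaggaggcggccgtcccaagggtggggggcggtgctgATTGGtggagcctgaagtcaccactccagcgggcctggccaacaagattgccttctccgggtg
Phyh: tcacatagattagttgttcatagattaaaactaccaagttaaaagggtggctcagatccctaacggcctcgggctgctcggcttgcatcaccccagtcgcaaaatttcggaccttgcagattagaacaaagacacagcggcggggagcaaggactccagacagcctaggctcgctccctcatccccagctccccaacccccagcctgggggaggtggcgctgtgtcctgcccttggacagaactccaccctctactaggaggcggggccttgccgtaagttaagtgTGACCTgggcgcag
Pex7: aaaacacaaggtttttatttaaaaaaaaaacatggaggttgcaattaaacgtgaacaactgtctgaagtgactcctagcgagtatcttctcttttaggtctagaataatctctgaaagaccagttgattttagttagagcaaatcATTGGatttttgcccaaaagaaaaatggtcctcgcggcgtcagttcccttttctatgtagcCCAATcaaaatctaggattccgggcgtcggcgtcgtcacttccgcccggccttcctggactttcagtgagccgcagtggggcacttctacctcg
Pex3: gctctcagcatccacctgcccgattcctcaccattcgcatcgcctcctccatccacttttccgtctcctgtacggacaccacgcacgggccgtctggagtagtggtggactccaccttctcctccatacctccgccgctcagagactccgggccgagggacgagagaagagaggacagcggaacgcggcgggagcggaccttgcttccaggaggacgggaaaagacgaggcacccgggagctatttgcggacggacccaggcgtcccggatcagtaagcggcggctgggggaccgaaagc
The Cat promoter has 1 AGGTCA and 4 CCAAT matches, that of Phyh 1 AGGTCA near its end, that of Pex7 2 CCAAT and that of Ehhadh 1. Those of Hsdl2 and Pex3, called as well, hold none of either.

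Beyond the 35 genes, 48 other genes of the peroxisome were listed, of which 46 were in the table and 40 passed the filter. Of these 40, 34 lay lower in KO and the median difference was -0.44; 21 had an unadjusted edgeR p under 0.05 and a lower level, against 11.1% of all genes, and 1 a higher level, against 10.4%. In the 6-library comparison 8 fell, against 1.50% of all genes, and 1, Far1, rose, against 1.82%. Acad11, an acyl-CoA dehydrogenase for hydroxylated chains, had the smallest p of the 40: it was at 205, 210, 212 and 242 CPM in WT and 139, 108, 111 and 106 CPM in KO, and fell by 0.88 (adjusted p = 0.0289). Amacr, the racemase that readies branched acids for oxidation, fell by 0.70 (adjusted p = 0.0406), and Slc27a2, a very long-chain acyl-CoA synthetase, by 0.86 (adjusted p = 0.0289). Mff, a fission factor of peroxisomes and mitochondria, differed by -0.46 ± 0.10 (adjusted p = 0.0981, and 0.0520 with 6 libraries).

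Mitochondrial beta-oxidation lay lower to a like extent as the peroxisomal enzymes: 17 of 18 genes, where 49.5% of all genes lay lower, with a median of -0.62. With 6 libraries 8 of the 18 were called lower, against 1.50% of all genes. In 14 of the 18 every KO library lay below every WT library, against 7.56% of all genes. The 4 with the smallest p, all among those 14, were Etfdh, Acadvl, Crat and Hadha, at -0.87, -1.17, -0.59 and -0.77. That list spread more between libraries, from -0.83 to -0.40 in KO, than the peroxisomal enzymes. The difference between the lists was not tested. Regulators were mixed: of 10, 6 lay lower and 4 higher, with a median of -0.13. Rxra, the partner receptor of the PPARs, was at 88.2 to 124 CPM in WT and 76.2 to 85.2 CPM in KO, and Ppara at 39.9 to 117 and 37.6 to 53.7 CPM. The coactivator Ppargc1b was at 41.7 to 83.1 CPM in WT and 70.1 to 140 CPM in KO, and Ppargc1a at 88.9 to 160 and 38.9 to 100.2 CPM. None of these 4 regulators was called by edgeR with 8 or 6 libraries. With 8 libraries DESeq2 called Rxra lower (adjusted p = 0.045) and Ppargc1b higher (adjusted p = 0.0383). It called 4.14% of its genes lower and 3.65% higher. The weighted limma-voom fit called Rxra alone of the 4 (adjusted p = 0.036), where 3.62% of all genes were called lower and 2.94% higher. These 4 were named because they had the smallest edgeR p of the 10. The other PPARs had overlapping groups, with log2 fold changes of 0.18 ± 0.16 for Pparg and 0.021 ± 0.16 for Ppard. With 6 libraries these were 0.11 and -0.13.

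**Figure D4:**
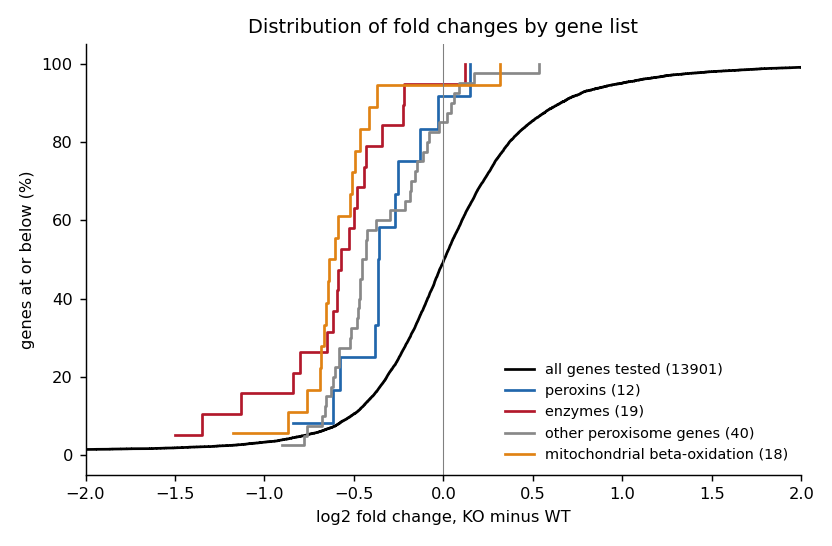
Share of genes at or below each log2 fold change (KO minus WT, 8 libraries, x axis shown from -2 to 2) for all 13901 genes tested, 12 peroxins, 19 peroxisome enzymes, 40 other peroxisome genes and 18 mitochondrial beta-oxidation genes. The peroxin curve crosses 50% at -0.36, between the enzymes at -0.57 and all genes at 0.00362.

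Marker lists of several cell types also had different levels in the groups, given here with no test. Of 12 adipocyte markers 10 lay lower, with a median of -0.35 (-0.19 with 6 libraries), and their summed level was 28002 to 32437 CPM in WT and 21898 to 29398 CPM in KO. Of 10 brown adipocyte markers 9 lay lower, with a median of -0.50 (-0.40 with 6 libraries, 8 of 10 then lower) and summed levels of 9281 to 11512 and 5433 to 8946 CPM. Ucp1 alone had a mean of 5983 of the 10744 CPM in WT and 3258 of the 7385 CPM in KO. Log2 fold changes in this list ran from -1.26 (Elovl3) to 0.34 (Prdm16). It includes Slc27a2, which is also among the other peroxisome genes. Of 10 endothelial markers 9 lay higher, with summed levels of 1474 to 1995 CPM in WT and 1766 to 3104 CPM in KO. All 10 T and NK cell markers lay higher, with a median of 2.04 (0.85 with 6 libraries, 1 of 10 then lower) and summed levels of 4.37 to 35.3 CPM in WT and 22.1 to 218 CPM in KO, the most in replicate 2. All 8 macrophage markers lay higher too, with a median of 0.42 (0.19 with 6 libraries, 2 of 8 then lower) and summed levels of 174 to 267 and 212 to 569 CPM. In whole tissue, fewer brown adipocytes and less of these RNAs per cell cannot be told apart, and the part of cell makeup in the peroxisome values was not tested.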

How the data were processed

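The deposited table held 1 raw count per gene and library for 18395 genes, which the authors had made on GRCm39, per the submitters' processing notes. Polyadenylated RNA was captured, and strand was marked with dUTP, per the labels' protocols. No aligner, counter, annotation or strand setting is stated in the sources used here. Symbols were matched by gene ID for 18321 genes. Exon lengths and overlaps came from GENCODE M21, on GRCm38.

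Genes were kept by filterByExpr, scaled by TMM and compared, KO against WT, with edgeR 4.0.16 (robust quasi-likelihood F test, group as the only term, R 4.3.3). P-values were adjusted over all genes tested by Benjamini and Hochberg, with a threshold of 0.05. Standard errors came from the fold change and F statistic, and log2 CPM used a prior count of 2. DESeq2 1.42.0 and limma 3.58.1 were alternatives. The least counted members had 129 reads for Acot3 and 343 for Hacl1 over all 8 libraries; total counts per library were 33672272 to 43253559.

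The 35 genes, the other lists, the tests and the 6-library comparison were chosen with earlier results of these data known. Values in every library were given for up to 3 genes of each role group with the smallest p, for the gene most opposed to its group, and for genes called with 6 libraries; Acaa1b, Acot3, Far1 and Myd88 were added after their values were seen. Replicate numbers were not treated as pairs. On simulated counts of 13901 genes, edgeR recovered 0%, 28.6% and 67.6% of genes changed 1.5-, 2- and 4-fold with 8 libraries, and 9.72%, 57.8% and 87.5% with 6. Only 62, 70 and 68 genes were changed at those folds with 8 libraries, and 72, 64 and 64 with 6. Each simulated set had 5 false calls and held no outlying library. Such rates depend on how many genes change, so they do not give the share recovered in these data. Figures were drawn with matplotlib 3.10.9.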

Additional observations from a re-analysis of the deposited data

Results flagged for a closer look

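In groups of 4 libraries, the highest or lowest value was compared with its nearest neighbour by Dixon's ratio for the 35 genes and Fermt2, 72 groups in all, and by chance about 1 in 20 groups would stand out. The 4 values that stood out came from the 2 libraries that also stand apart in muscle or interferon response markers. Pecr in KO replicate 2 was at 13.9 CPM, above 10.5 to 10.6 CPM in the other KO libraries. Pxmp2 in KO replicate 2 was at 25.4 CPM, below 29.2 to 29.5 CPM in the others. Phyh in WT replicate 3 was at 577 CPM, below 662 to 670 CPM in the other WT libraries. Pex5 in WT replicate 3 was at 134 CPM, below 173 to 181 CPM in the others. With and without these libraries, Phyh differed by -0.62 and -0.71, Pecr by -0.59 and -0.76, Pxmp2 by -0.27 and -0.15, and Pex5 by -0.36 and -0.35 on the log2 scale.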

How the results depend on the processing

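The direction of the peroxisome lists held under all 18 alternatives, with enzyme medians from -0.62 to -0.31, peroxin medians from -0.38 to -0.10 and enzymes minus peroxins from -0.25 to -0.15. The number of genes called did not hold: edgeR called 0 genes with all libraries, 882 with total library size only (24 lower), 1 with no filter, 461 with 6 libraries, and 0 to 361 when 1 library was left out, 361 without KO replicate 2. DESeq2 called 1073 and limma-voom with quality weights 911. Of the 35 members, 0 became 3 with total library size only, 15 with DESeq2, 16 with limma-voom with quality weights, 9 with 6 libraries, and 0 to 8 with 1 library left out. With total library size only the medians were -0.31 for enzymes, -0.23 for transporters and channels and -0.10 for peroxins, and 5 members turned sign: Acox3 0.037, Agps 0.040, Pex14 0.0023, Pex2 0.12 and Pex6 0.23. Leaving out 1 library gave enzyme medians from -0.60 to -0.49. Acaa1a was -0.064 with limma-voom with quality weights and -0.072 with 6 libraries, and -0.025 to 0.19 with 1 library left out; Pex6 was -0.12 to 0.052. The replicate block called 0 genes and 0 members, with medians of -0.56 for enzymes and -0.37 for peroxins. The labels do not pair the samples, and deviations of same-numbered libraries correlated at -0.051, 0.044, -0.13 and 0.22; 2 of the 4 WT libraries correlated best with their own number. The CPM filter removed Acot3. The causes were not tested.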
